A study of Mus musculus with 2 samples.

Results

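The genes described here encode 10 basic leucine zipper (bZIP) transcription factors of the AP-1 and small Maf groups: the Fos proteins Fos, Fosb, Fosl1 and Fosl2, the Jun proteins Jun, Junb and Jund, the related factor Atf3, and the small Maf proteins Maff and Mafk. They were chosen by gene symbol, and each of the 10 symbols matched 1 of the 55536 annotated genes. The tissue was the adrenal gland of male B6CASTF1/J mice, which are F1 hybrids of C57BL/6J and CAST/EiJ, taken at 36 days of age with no treatment named. Total RNA depleted of ribosomal RNA was sequenced from 300 ng per library. The series holds 1 group with 2 libraries, called replicate 1 and replicate 2 after the biological replicate number of their labels, so it gives levels and the ratio between these libraries but no contrast of conditions. The biosample labels give each library an animal of its own, whereas the library labels give both the same animal and both carry the same donor ID, and this conflict could not be settled from the labels.

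AP-1 is a dimer. A Jun protein pairs with another Jun or with a Fos protein through the leucine zipper, and the basic region next to it binds the DNA element TGACTCA or the related cyclic AMP response element (CRE), TGACGTCA. Several of these genes, Fos and Fosb above all, are immediate early genes, which cells transcribe briefly after a hormone, nerve or stress signal, while Jund is known for steady expression. In the adrenal cortex, ACTH acting through cyclic AMP is a known inducer of Fos and Jun genes, and in chromaffin cells of the medulla nerve input has the same effect. The small Maf proteins lack an activation domain and act as partners of CNC and Bach factors at antioxidant response elements.

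On mm10 with GENCODE M21 the genes lie apart from each other, and the coding transcripts of all but the Jun genes contain introns. The Fos genes are Fos (ENSMUSG00000021250.13) at chr12:85473890-85477273, Fosb (ENSMUSG00000003545.3) at chr7:19302696-19310051, Fosl1 (ENSMUSG00000024912.6) at chr19:5447547-5455946 and Fosl2 (ENSMUSG00000029135.10) at chr5:32135801-32157842. The Jun genes are Jun (ENSMUSG00000052684.4) at chr4:95049034-95052222, Junb (ENSMUSG00000052837.6) at chr8:84974484-84978718 and Jund (ENSMUSG00000071076.6) at chr8:70698949-70700616. The others are Atf3 (ENSMUSG00000026628.13) at chr1:191170296-191218039, Maff (ENSMUSG00000042622.14) at chr15:79346621-79359076 and Mafk (ENSMUSG00000018143.10) at chr5:139791513-139802653.

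The gene tables held 35511291 counts on annotated genes in replicate 1 and 30169338 in replicate 2. Cortex markers, led by Star, Hsd3b1 and Cyp11a1, were abundant in both libraries, as were the chromaffin cell markers Chgb, Chga and Th. Both libraries held RNA of fat genes too. The 5 fat markers summed to 1003 TPM in replicate 1 and 980 TPM in replicate 2, with Ucp1 at 156 and 302 TPM. Replicate 2 also held RNA of digestive and islet genes of the pancreas. The 6 acinar markers summed to 0.240 TPM in replicate 1, where Cpa1 and Pnlip were at 0 counts, and to 7254 TPM in replicate 2. All 4 islet markers (Ins1, Ins2, Gcg and Iapp) were at 0 counts in replicate 1 and summed to 89.7 TPM in replicate 2, and 4 liver markers summed to 11.5 TPM in replicate 1 and 88.0 TPM in replicate 2. TPM is a level corrected for transcript length and put on a common total for every library. Nuclear protein-coding genes took 31.0% of that sum in replicate 1 and 23.2% in replicate 2, so deposited TPM of coding genes is not on the same footing in both libraries.

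Fosl2, Jun and Jund made up most of the family's RNA in these libraries. Fosl2, which encodes the Fos-related antigen Fra-2, was the most abundant member, at 135.75 TPM in replicate 1 and 63.82 TPM in replicate 2 (mean 99.8 ± 50.9, SD, n = 2). It stood at rank 333 and rank 564 among 22015 nuclear protein-coding genes. Jun, the founding partner of the dimer, was at 93.19 TPM in replicate 1 and 43.47 TPM in replicate 2 (68.3 ± 35.2). Jund, the constitutive Jun protein, was at 66.16 TPM in replicate 1 and 34.80 TPM in replicate 2 (50.5 ± 22.2). Together these genes held 84.1% of the summed TPM of the 10 members in replicate 1 and 88.2% in replicate 2. Fosl2 alone held 92.3% and 96.7% of the summed TPM of the Fos genes, and it exceeded Fos 53.7 times in replicate 1 and 44.3 times in replicate 2.

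The remaining members were lower. Junb was at 21.58 TPM in replicate 1 and 6.18 TPM in replicate 2, and Mafk at 13.84 TPM and 7.40 TPM. Among the nuclear protein-coding genes Junb stood at rank 2960 in replicate 1 and rank 6669 in replicate 2, and Mafk at rank 4583 and rank 5968. Maff was at 5.76 TPM in replicate 1 and 2.37 TPM in replicate 2. Fos itself, the prototype of the group, was at only 2.53 TPM in replicate 1 and 1.44 TPM in replicate 2 (1.99 ± 0.771). Fosb was at 7.13 TPM and 0.60 TPM, Atf3 at 3.32 TPM and 0.80 TPM, and Fosl1, which encodes Fra-1, at 1.60 TPM and 0.16 TPM in replicates 1 and 2. In replicate 1 all 10 members reached 1 TPM, and in replicate 2 it was 7, with Fosb, Atf3 and Fosl1 below.

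Every member had the higher deposited TPM in replicate 1, also after TPM was rescaled over nuclear protein-coding genes and in the second transcript file. The order by mean TPM was Fosl2, Jun, Jund, Junb, Mafk, Maff, Fosb, Atf3, Fos and Fosl1. Of the 9 neighbouring pairs in this order, only Jund over Junb, Mafk over Maff and Fos over Fosl1 differed by more than the larger SD of the pair. Within a library the upper end kept its order: Fosl2 exceeded Jun 1.46 times in replicate 1 and 1.47 times in replicate 2, and Jun exceeded Jund 1.41 and 1.25 times. The lower end did not. Fosb was the sixth gene in replicate 1 and the ninth in replicate 2, and Fos the ninth in replicate 1 and the seventh in replicate 2.

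**Figure D1:**
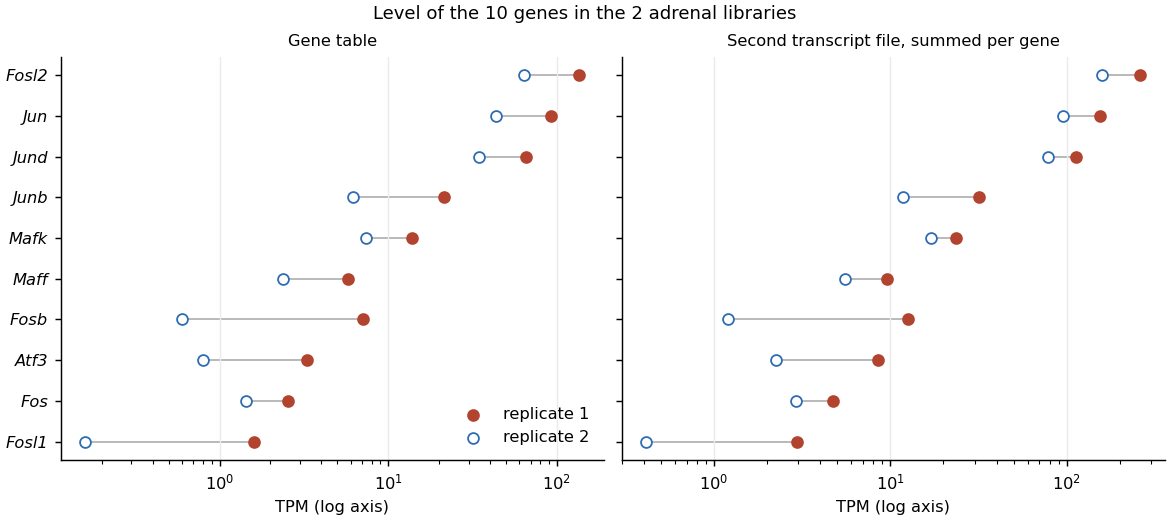
TPM of each gene (log axis) in replicate 1 (filled) and replicate 2 (open), from the gene table on the left and from the second transcript file on the right, ordered by mean TPM. Every filled point lies right of its open point, by most for Fosb (7.13 and 0.60 TPM) and Fosl1 (1.60 and 0.16 TPM).

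The balance between the family sums was alike in the 2 libraries. The Jun genes summed to 180.9 TPM in replicate 1 and 84.45 TPM in replicate 2, and the Fos genes to 147.0 TPM and 66.02 TPM. Jun over Fos TPM was therefore 1.23 in replicate 1 and 1.28 in replicate 2 (mean 1.25 ± 0.0342, SD, n = 2), or 1.10 ± 0.0473 in the second transcript file. Within the Jun family the makeup differed more, since Jund exceeded Junb 3.07 times in replicate 1 and 5.63 times in replicate 2. The Fos sum was mostly Fosl2 (92.3% in replicate 1, 96.7% in replicate 2), so the ratio of the sums says little of the lower Fos genes. Among these, Fosb was at 7.13 TPM in replicate 1 and 0.60 TPM in replicate 2.

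The spread between the libraries fell unevenly over the members. All 10 were tested, each with a mean CPM (counts scaled to library size) of 1 or more, although Fosl1 reached that mean through replicate 1 alone (2.82 CPM in replicate 1, 0.365 CPM in replicate 2). After TMM scaling, 10 of 10 had the higher count in replicate 1, as did 48.9% of the 14780 tested genes. A gene was called when it differed at least 2-fold with an adjusted p under 0.05 in a two-sided exact binomial test, which compares the reads of these libraries, not conditions, and covers counting error alone. By this rule 5 members were higher in replicate 1 (Fosb, Fosl1, Atf3, Junb and Fos), none was higher in replicate 2, and 5 were not called. Over all tested genes the called share was 1.74% toward replicate 1 and 5.13% toward replicate 2. The share called higher in replicate 1 was 2.22% for genes with a mean of 1 to 10 CPM, 1.31% for 10 to 100 CPM and 2.17% above 100 CPM. The median log2 ratio of replicate 1 over replicate 2 was 1.03 over the members and -0.01 over all tested genes. Adrenal glands are mixed tissue, and fewer cells of a type cannot be told apart from less RNA per cell.

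Fosb, an activating Fos protein with brief induction, had the highest ratio of the family. It held 744 counts in replicate 1 and 61 in replicate 2, a ratio of 9.99-fold toward replicate 1 (exact binomial test, 95% interval 7.69 to 13.2, adjusted p = 1.51e-120). Only 10 tested genes had a larger ratio. Fosl1 followed with 100 counts in replicate 1 and 11 in replicate 2, a 7.44-fold ratio (3.99 to 15.4, exact binomial adjusted p = 9.80e-15), with the widest interval of the 10. Fos had 173 counts in replicate 1 and 60 in replicate 2, a 2.36-fold ratio (1.75 to 3.22, exact binomial adjusted p = 1.10e-08). The lower bound for Fos lay under 2-fold, and with an edgeR exact test at a fixed biological coefficient of variation of 0.2 its adjusted p was 0.199, so its call was lost. Fosl2, with 28939 counts in replicate 1 and 13785 in replicate 2, had a ratio of 1.72 (1.68 to 1.75), below the 2-fold line at any point of its narrow interval.

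Among the Jun genes Junb stood apart from its relatives. Junb, whose protein is often a weaker activator than Jun, had 1300 counts in replicate 1 and 407 in replicate 2, a 2.62-fold ratio (2.34 to 2.93, exact binomial adjusted p = 7.02e-72). Jun had 10172 counts in replicate 1 and 5216 in replicate 2, a ratio of 1.60 (1.54 to 1.65). Jund, at 3667 and 2120 counts, had a ratio of 1.42 (1.34 to 1.49), with an interval that overlapped that of Mafk. The counting intervals of these Jun genes did not overlap, with Junb above Jun and Jun above Jund.

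Atf3, a stress-induced factor that pairs with Jun proteins, had 195 counts in replicate 1 and 43 in replicate 2, a 3.71-fold ratio (2.66 to 5.29, exact binomial adjusted p = 3.22e-17). The small Maf genes were not called. Maff, the inducible one, had 371 counts in replicate 1 and 170 in replicate 2, a ratio of 1.79 (1.49 to 2.16), and its interval reached past 2-fold. Mafk, at 1319 and 753 counts, had a ratio of 1.43 (1.31 to 1.57).

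**Figure D2:**
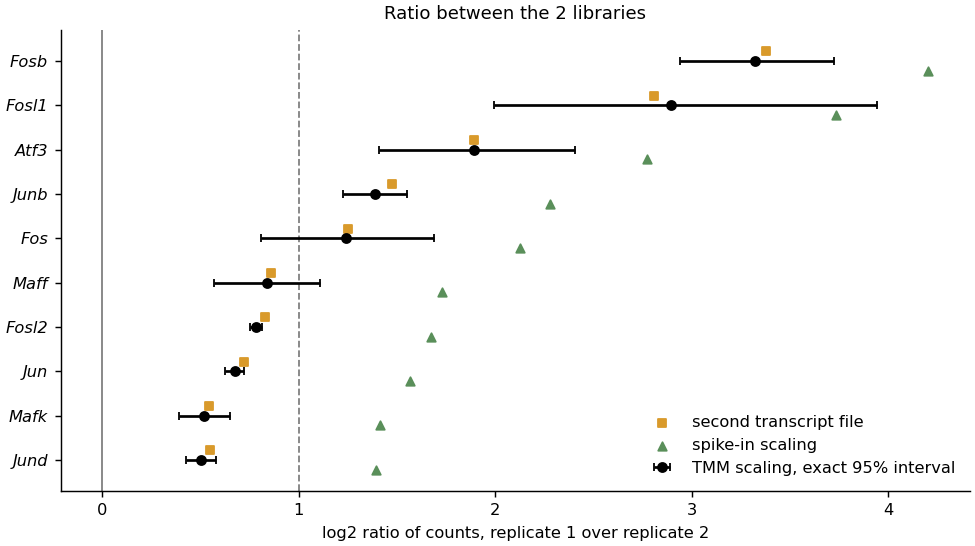
Log2 ratio of counts, replicate 1 over replicate 2, for each gene with its exact 95% interval under TMM scaling (black), and the ratio from the second transcript file (squares) and under spike-in scaling (triangles). The dashed line marks 2-fold; Fosb (9.99-fold) and Fosl1 (7.44-fold) lie far right of it and Jund (1.42-fold) left of it, and spike-in scaling raises each log2 ratio by 0.89.

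Markers of several cell types also differed between the libraries. All 8 cortex markers were higher in replicate 1 after TMM scaling, with a summed level of 14828 TPM in replicate 1 and 8238 TPM in replicate 2, and 1 of them, Nr5a1, was called. None of the 6 medulla markers was higher in replicate 1 after TMM scaling (summed deposited level 1432 TPM in replicate 1, 1679 TPM in replicate 2). Rescaled over nuclear protein-coding genes, the cortex markers summed to 47756 TPM in replicate 1 and 35448 TPM in replicate 2. The medulla markers then summed to 4612 TPM and 7225 TPM. All 5 macrophage, all 4 fibroblast and both red cell markers were higher in replicate 1 without being called. Their median log2 ratios were 0.21, 0.44 and 0.66. For the macrophage markers Adgre1, Csf1r and C1qa the exact interval included a ratio of 1. Higher in replicate 1 without being called were also 2 of 3 smooth muscle markers (median 0.59), 3 of 4 endothelium markers (median 0.11) and 2 of 3 tested Schwann markers (median 0.06). Of 5 fat markers 2 were higher in replicate 1 (median -0.31), and Ucp1 was called toward replicate 2. The part of these cell types in the result was not tested. A choice made after seeing the data was to leave out 88 genes with a ratio of 32-fold or more toward replicate 2. The same number of members, 5, was then called. TMM already trims extreme ratios and the full library sizes were kept, so this could hardly move a ratio. The log2 ratio of Fosb was 3.309 with these genes and 3.308 without. The check cannot show whether the pancreas or liver RNA of replicate 2 has a part in the result, which was not tested. Scaled by spike-in counts, every log2 ratio rose by 0.89 and all 10 members were called, together with 5279 of the 14780 tested genes.

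Promoter sequence was read for the members from RefSeq windows on GRCm38.p6, which shares its coordinates with mm10. Of the 10 genes 9 matched, with 11 windows; Fosl1 is named only. The 250 bases before each start were searched on both strands. The CRE core TGACG occurred in 7 of the 11 windows, belonging to 6 genes (Fos, Fosb, Junb, Atf3, Maff and Mafk), against 17.8% of all 32851 windows. The complete CRE TGACGTCA, which also counts as TGACG on each strand, occurred in 1 window, of Maff, against 1.55% of all. TGACATCA, the form found in the Jun promoter, occurred in the window of Jun and in another window of Maff, against 2.93%. TGACTCA (4.46% of all windows) and the CArG box of serum response factor (1.47%) occurred in none, which says only that these letters are not in these windows. TATAAA was present in the window of Fos alone, against 12.4% of all. The stretches below are shown because each holds one of these sites, 5′ to 3′ on the gene's strand, with TGACG, TGACGTCA or TGACATCA on either strand in capitals:
Fos (chr12:85473640-85473889, plus strand): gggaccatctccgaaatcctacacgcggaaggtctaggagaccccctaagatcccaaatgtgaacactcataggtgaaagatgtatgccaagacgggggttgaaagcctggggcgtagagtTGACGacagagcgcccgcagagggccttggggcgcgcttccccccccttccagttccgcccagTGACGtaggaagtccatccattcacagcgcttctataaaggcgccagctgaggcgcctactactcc
Fosb (chr7:19310046-19310295, minus strand): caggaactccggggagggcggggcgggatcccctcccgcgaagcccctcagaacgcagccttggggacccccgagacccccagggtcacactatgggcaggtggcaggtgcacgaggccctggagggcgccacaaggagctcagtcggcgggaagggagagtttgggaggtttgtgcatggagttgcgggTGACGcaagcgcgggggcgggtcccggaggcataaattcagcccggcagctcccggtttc
Junb (chr8:84978749-84978998, minus strand): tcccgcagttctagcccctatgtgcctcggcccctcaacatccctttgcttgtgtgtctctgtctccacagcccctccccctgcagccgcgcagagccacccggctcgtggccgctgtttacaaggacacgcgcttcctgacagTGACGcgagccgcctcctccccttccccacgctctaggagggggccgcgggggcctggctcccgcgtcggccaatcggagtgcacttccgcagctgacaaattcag
Jun (chr4:95052223-95052472, minus strand): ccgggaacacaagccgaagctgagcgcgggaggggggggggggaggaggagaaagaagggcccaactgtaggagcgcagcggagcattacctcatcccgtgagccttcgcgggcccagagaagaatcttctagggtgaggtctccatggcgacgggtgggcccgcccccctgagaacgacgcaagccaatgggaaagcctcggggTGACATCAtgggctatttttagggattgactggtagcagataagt
Atf3 (chr1:191183334-191183583, minus strand): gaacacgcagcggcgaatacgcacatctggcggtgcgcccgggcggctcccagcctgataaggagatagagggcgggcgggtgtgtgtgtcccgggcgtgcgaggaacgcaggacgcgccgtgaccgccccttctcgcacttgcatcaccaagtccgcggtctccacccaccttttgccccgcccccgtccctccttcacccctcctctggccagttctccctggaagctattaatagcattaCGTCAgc
Maff (chr15:79347270-79347519, plus strand): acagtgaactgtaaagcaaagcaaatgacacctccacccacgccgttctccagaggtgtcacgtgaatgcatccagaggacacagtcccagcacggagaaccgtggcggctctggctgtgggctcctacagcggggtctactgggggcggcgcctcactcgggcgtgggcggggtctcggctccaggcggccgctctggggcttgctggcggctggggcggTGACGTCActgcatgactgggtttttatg
The site nearest to each start began 66 bases before it in Fos, 60 in Fosb, 106 in Junb, 45 in Jun, 7 in Atf3 and 29 in Maff. A match of letters is a description and shows no binding. Genes with the core included both called members (Fos, Fosb, Junb and Atf3) and members that were not called (Maff and Mafk). The core was absent from the windows of Fosl2, Jun and Jund, which were not called. A relation between the core and the calls was not tested.

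The transcript files split each gene into its annotated forms, and here Fosb was the most varied. The first transcript file gave Fosb-201, the full form of 338 codons, 34.4% of the gene's TPM in replicate 1 and 45.0% in replicate 2. The second file gave it 61.8% in replicate 1 and 55.8% in replicate 2, so the direction turned with the file. Fosb-206, with 237 codons, took 23.8% in replicate 1 and 38.3% in replicate 2 of the first file, and 33.3% and 30.7% in the second, which also turned. It lacks a 140-base stretch of the last coding exon, as does Fosb-207. In Fosb-206 this excision gives the shortened protein known as delta-FosB, a long-lived form without the C-terminal activation domain. Together Fosb-206 and Fosb-207 took 48.4% of the TPM of Fosb in replicate 1 and 38.3% in replicate 2, or 35.9% and 30.7% in the second transcript file. Their sum is not a share of delta-FosB, since Fosb-207, with 201 codons, also lacks an upstream coding exon. In replicate 2 these forms rested on 8.75 expected counts, so their share there is imprecise. Fosb-207 had 212 counts in replicate 1 of the first file and 26.1 in the second file. It had 0 in replicate 2 of both, so its level depends on the file. The excised stretch is printed with 30 bases of flank on each side, read from the GENCODE M21 sequence of Fosb-201, with the bases absent from Fosb-206 and Fosb-207 in capitals:
Fosb-201 (chr7:19304977-19305176, minus strand): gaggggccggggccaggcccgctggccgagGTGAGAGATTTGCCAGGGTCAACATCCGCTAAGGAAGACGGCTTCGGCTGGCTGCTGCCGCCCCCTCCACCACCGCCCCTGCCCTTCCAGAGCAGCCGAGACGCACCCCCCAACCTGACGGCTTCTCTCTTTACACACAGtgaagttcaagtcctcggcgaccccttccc
The excised part begins with GT and ends with AG, the letters that usually bound an intron.

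Non-coding forms took 4.08% of the summed TPM of the 10 members in replicate 1 and 9.49% in replicate 2, or 12.4% and 16.2% in the second file. In the first file their share was higher in replicate 2 for each of the 6 members in which any was detected. These were Fos, Fosb, Fosl2, Junb, Atf3 and Mafk, and in the second file it held for all but Atf3. For several members the share is imprecise, as it rested on few expected counts in the first file. Junb-202 held 1 in each library, Atf3-202 6.89 in replicate 1 and 4.32 in replicate 2, and Mafk-203 5.52 and 7.71. Fosb-204 held 6.92 in replicate 2. The coding transcript Fos-201 held 170 expected counts in replicate 1 and 32.9 in replicate 2, or 94.5% and 29.2% of the TPM of Fos. The processed transcript Fos-203, which starts inside the first intron of Fos-201, held 3.47 counts in replicate 1 and 25.3 in replicate 2, or 5.53% and 65.3%. In the second file the share of Fos-203 was 38.1% in replicate 1 and 68.2% in replicate 2, so the direction was the same and the size was not. The ratio of Fos-201 alone was 4.21-fold toward replicate 1 in the first file and 3.22-fold in the second, larger than the 2.36-fold of the whole gene. The effective length assigned to Fos, a mean over its forms, was 1936 bases in replicate 1 and 1071 in replicate 2, and the ratio of its TPM was 1.76 as deposited and 1.32 when rescaled over nuclear protein-coding genes.

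For Fosl2 the forms held more counts, but their shares still moved with the file. The coding Fosl2-201 (326 codons) held 27890 expected counts in replicate 1 and 12598 in replicate 2, 90.3% and 79.0% of the gene's TPM, a ratio of 1.81 after scaling. In the second file its share was 72.9% in replicate 1 and 64.7% in replicate 2, with a ratio of 1.88. The retained-intron transcript Fosl2-202, which extends through the start of the first intron, held 582 counts in replicate 1 and 666 in replicate 2, a ratio of 0.716, and 0.699 in the second file. The coding transcript of Fosl2 was thus higher in replicate 1 and this retained-intron transcript lower, in both files. The other retained-intron form, Fosl2-203, shares most of its length with Fosl2-201 and turned with the file: its ratio was 0.734 in the first and 1.44 in the second.

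**Figure D3:**
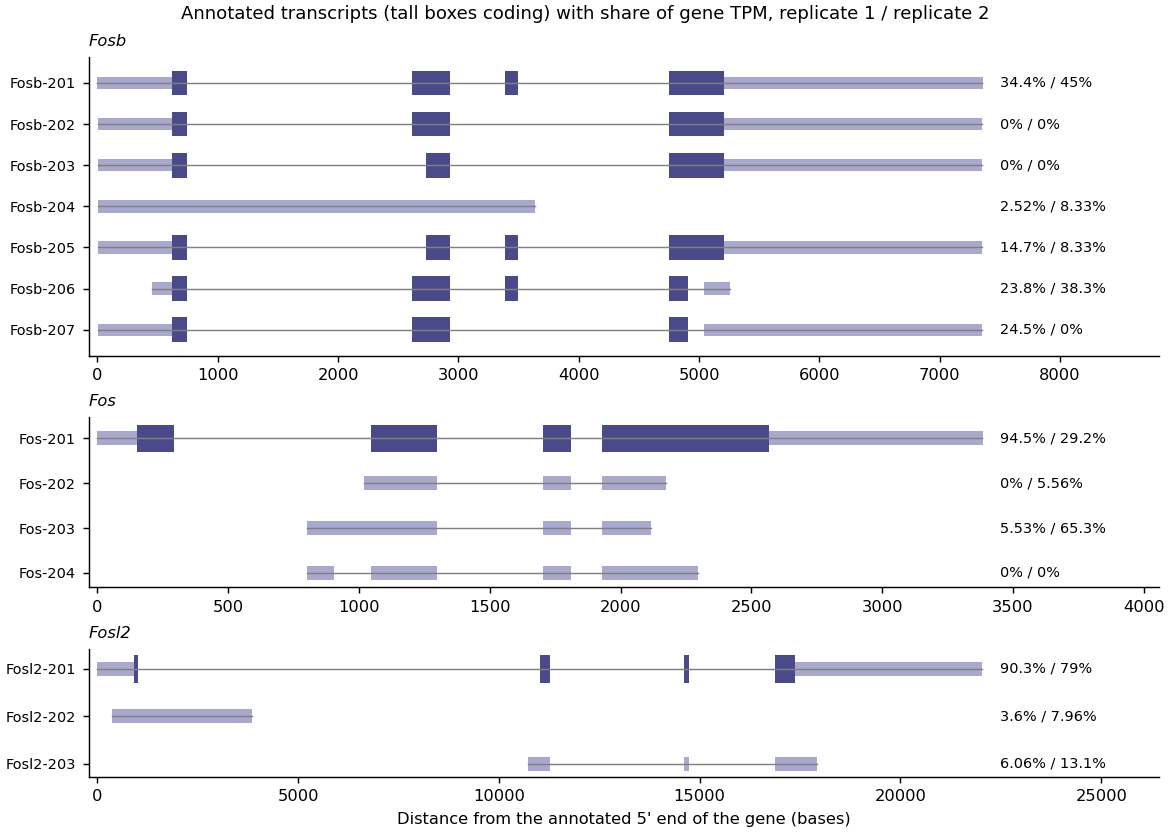
Annotated transcripts of Fosb, Fos and Fosl2 drawn by distance in bases from the 5′ end of the gene, tall boxes coding and low boxes non-coding exons, with the share of gene TPM in replicate 1 and replicate 2 of the first transcript file at the right. Fosb-206 and Fosb-207 show the gap of 140 bases in the last exon, and Fos-203 (5.53% and 65.3%) starts inside the first intron.

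In the remaining genes the makeup ranged from 1 form to several. Jun and Jund have 1 annotated transcript, without introns, and Junb-201 took 99.7% of Junb in replicate 1 and 98.9% in replicate 2. Fosl1-201 held all counts of Fosl1 in both libraries. Atf3-201 took 62.2% of Atf3 in replicate 1 and 56.2% in replicate 2 of the first file, and 48.4% and 54.4% in the second, so the direction turned. The non-coding Atf3-202 took 14.1% and 33.8% in the first file and 46.7% and 45.1% in the second. Atf3-203, which has the same 181 codons and starts at a distant upstream exon, took 23.7% in replicate 1 and 10% in replicate 2 of the first file, but 4.84% and 0.523% in the second file. Maff-201 took 70.1% of Maff in replicate 1 and 77.6% in replicate 2, and 52.8% and 92.2% in the second file. Mafk-201 took 94.7% and 89.5% of Mafk.

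**Figure D4:**
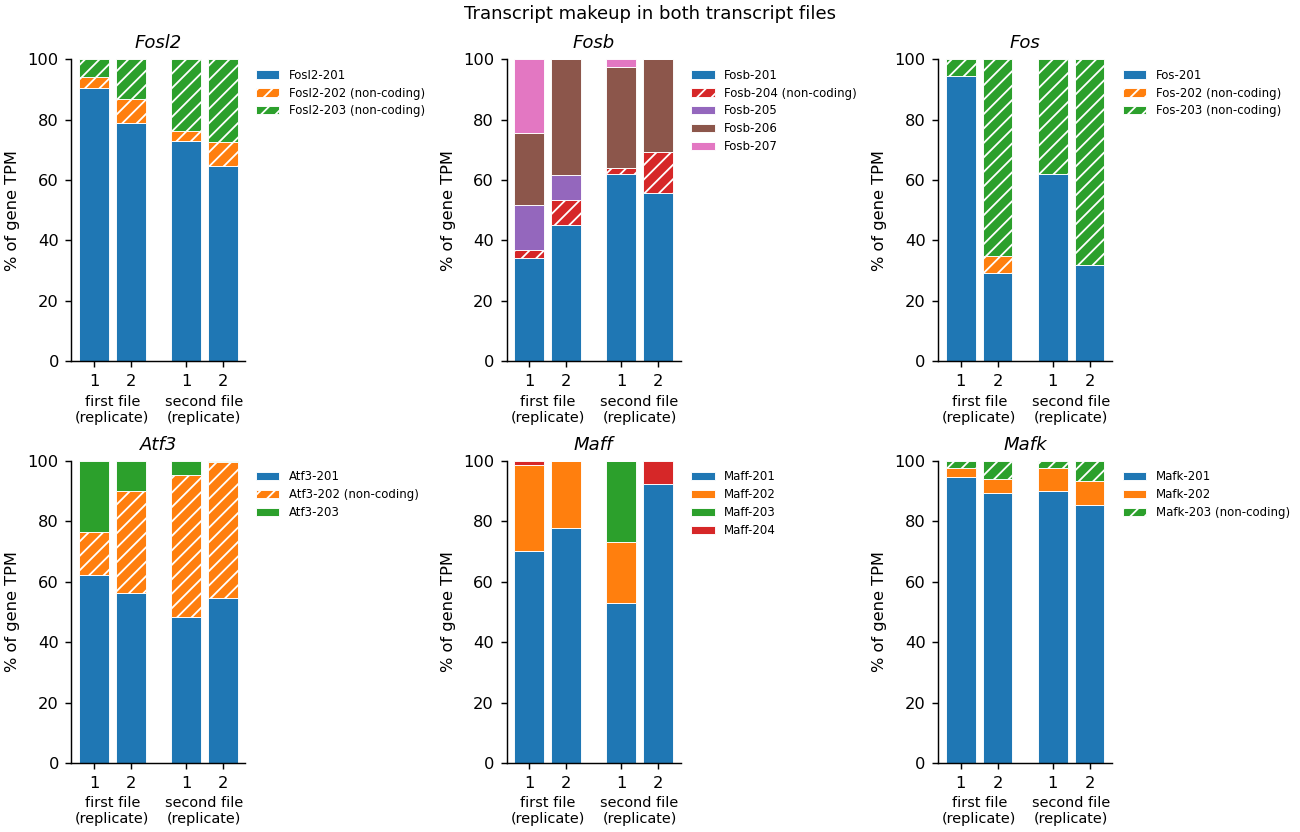
Share of each gene's TPM in its annotated transcripts (per cent), for replicates 1 and 2 in the first transcript file (left pair) and in the second (right pair), hatched where the transcript is non-coding. The hatched part of Fos and of Fosl2 is taller in replicate 2 in both files, and the forms of Maff and Fosb differ between the files.

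Partners and regulators of the family are set beside the shares called over all tested genes, 1.74% toward replicate 1 and 5.13% toward replicate 2. Of 18 bZIP partner genes 12 were tested. After TMM scaling 9 of them were higher in replicate 1, with a median log2 ratio of 0.33, and 1 was called. That gene was Batf3, a dendritic cell factor, at 73 counts in replicate 1 and 18 in replicate 2 (3.32-fold, exact interval 1.96 to 5.91), and it passed the mean CPM filter through replicate 1 alone. The most abundant partners were Nfe2l1 at 158.71 TPM in replicate 1 and 104.11 TPM in replicate 2, Atf4 at 79.43 and 33.60 TPM, Nfe2l2, the antioxidant regulator that pairs with small Maf proteins, at 39.34 and 17.15 TPM, and Atf2 at 21.99 and 17.18 TPM. None of these was called.

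Of 21 kinases and serum response factor regulators upstream of AP-1, all were tested and none was called. After TMM scaling 12 were higher in replicate 1 (median log2 ratio 0.06). Map2k2 was at 56.11 TPM in replicate 1 and 38.30 TPM in replicate 2, Mapk3 at 38.98 and 28.78 TPM, and Elk4 at 31.12 and 21.20 TPM. Of 10 genes of turnover and feedback, 1 was called, Zfp36, whose protein destabilises AU-rich mRNA, at 685 counts in replicate 1 and 274 in replicate 2 (2.05-fold, 1.78 to 2.36). The more abundant Zfp36l1 (1.59-fold), Cop1 (1.04-fold) and Zfp36l2 (1.07-fold) were not called, nor was Dusp6, at a ratio of 0.814.

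Known targets were mixed. Of 10 AP-1 target genes 6 were tested, and the median log2 ratio was 0.11, with 3 on each side of 0. Plau, the urokinase plasminogen activator, was called at 1416 counts in replicate 1 and 510 in replicate 2 (2.27-fold, 2.05 to 2.52). Ccnd1 had a ratio of 0.992, Timp1 of 1.42 and Cd44 of 0.734. Of 9 antioxidant genes regulated by small Maf dimers, 8 were higher in replicate 1 after TMM scaling and 1 was called (median log2 ratio 0.30). This was Slc7a11, the cystine transporter, at 69 counts in replicate 1 and 26 in replicate 2 (2.17-fold, 1.37 to 3.55), which passed the mean CPM filter through replicate 1 alone and was not called in the second file. Srxn1 had a ratio of 1.80, Hmox1 of 1.37, Prdx1 of 1.18 and Fth1, the ferritin heavy chain, of 0.970.

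Other early-response genes were also listed. Of 14 listed symbols 12 matched and 10 were tested, of which 6 were called, all higher in replicate 1 as were 1.74% of all tested genes, with a median log2 ratio of 1.21. They were Nr4a1 (28730 counts in replicate 1 and 335 in replicate 2), Nr4a2 (2548 and 136), Nr4a3 (5032 and 1144), Ier3 (402 and 109), Egr1 (1378 and 460) and Klf4 (881 and 329). Btg2, Ier2, Klf6 and Ier5 were not called, with ratios of 1.62, 1.68, 1.24 and 0.871. Btg2, Ier2 and Ier5 are named to complete the count, a choice made after their values were seen.

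**Figure D5:**
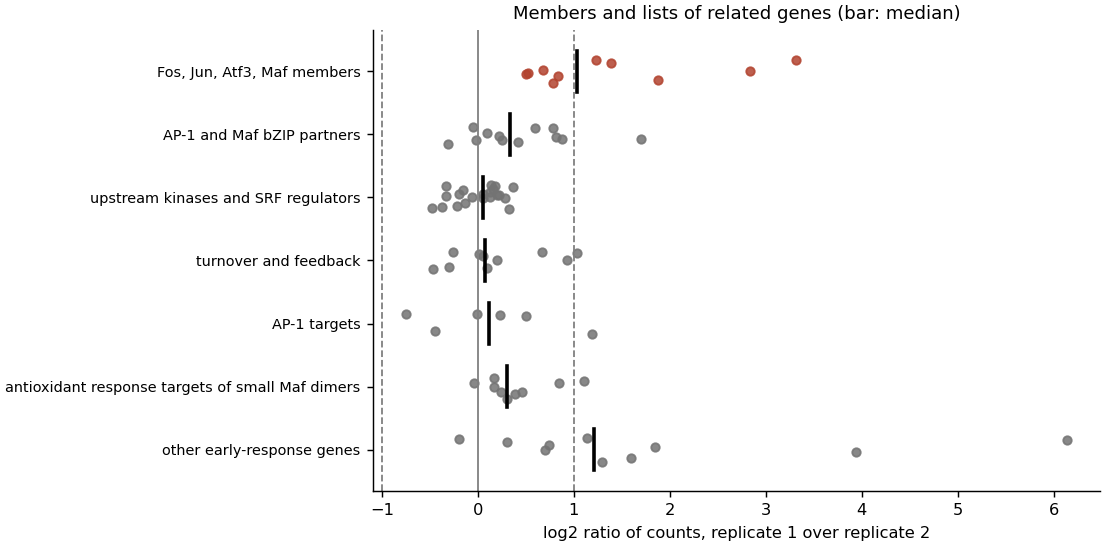
Log2 ratio of counts, replicate 1 over replicate 2, for the 10 members (top) and for each tested gene of 6 lists of related genes, with the median as a bar and dashed lines at 2-fold. The medians were 1.03 for the members, 1.21 for other early-response genes, and between 0.06 and 0.33 for the other lists.

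By distance in log2(TPM + 1) over the 2 libraries, the nuclear protein-coding genes nearest to Jund were Mcl1 (68.59 TPM in replicate 1 and 33.93 in replicate 2, distance 0.0624), Sf1 (0.0894) and Tubb5 (0.0907). Sf1 is a different gene from the cortex marker Nr5a1. Nearest to Fos were Fcgr2b (2.57 TPM in replicate 1 and 1.45 in replicate 2, distance 0.0173), Gm20604 (0.0175) and Armc7 (0.0175). With only 2 libraries this likeness is one of level.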

How the data were processed

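Gene and transcript tables of total RNA-seq on mm10 and GENCODE M21 (per the headers and notes deposited with each sample) were used. The authors deposited expected counts and TPM per gene and per transcript, derived from a transcriptome alignment, and, per the file headers, the percent of each gene's TPM per transcript. A second transcript table deposited per sample holds estimated counts and TPM made directly from the reads. The programs behind both: not given in the sources used here.

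Spike-in and other entries outside the gene annotation (0.843% and 1.50% of counts in replicates 1 and 2) were left out. Counts were rounded; those of all 10 members were whole within 0.01. Library sizes were scaled by TMM in edgeR 4.0.16 (factors 1.02 and 0.982; R 4.3.3), 0.5 was added for log2 ratios, and genes whose mean CPM reached 1 were tested by the two-sided exact binomial test with Benjamini-Hochberg adjustment over 14780 genes. Intervals are exact at 95% and cover counting error alone, as PCR copies of a molecule cannot be recognised here. The test compares single libraries, so its p-values set a difference against counting error alone, whatever the animal labels say. The procedure was tested on simulated data.

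All 10 members are named, with the called genes of each list, its 4 genes of highest mean TPM, and the 3 genes nearest to Fos and to Jund. One gene that this rule names is not reported here. Members and lists were chosen with earlier results of these data known. Alternatives were DESeq2 1.42.0 size factors, total counts, spike-ins, TMM over coding genes, other filters, pseudocounts and folds, an edgeR exact test, the second transcript file, rescaled TPM, and each replicate left out for levels. Other software was scipy 1.17.1, pandas 2.3.3 and numpy 2.4.6 under Python 3.11.15, with figures by matplotlib 3.10.9.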

Additional observations from a re-analysis of the deposited data

How the results depend on the processing

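Each member kept the higher count in replicate 1 under every scaling, filter, pseudocount and file in which it was tested. DESeq2 size factors, total counts, TMM over nuclear protein-coding genes, no filter, 2 added counts and the second transcript file each left 5 members called, and none was called higher in replicate 2 under any setting. Spike-in scaling called 10 members, a 1.5-fold threshold 8, the edgeR exact test 4, and a mean CPM of at least 5 called 2, since Fos, Fosl1 and Atf3 were then not tested.

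Over all genes, those called higher in replicate 1 and in replicate 2 numbered 5279 and 237 of 14780 with spike-ins (35.7% and 1.60%). They numbered 425 and 1613 of 26702 with no filter (1.59% and 6.04%). With a mean CPM of at least 5 they numbered 153 and 195 of 11093 (1.38% and 1.76%). Of 14780 genes, 760 and 1694 were called at 1.5-fold (5.14% and 11.5%), and 107 and 301 with the edgeR exact test (0.724% and 2.04%). With spike-ins, 8 of 12 tested partner genes, 10 of 21 upstream genes and 4 of 10 turnover genes were called. So were 3 of 6 AP-1 targets and 8 of 9 antioxidant genes. These counts stand beside the 35.7% and 1.60% of all tested genes called with spike-ins. In the second file 0 of 9 antioxidant genes were called, beside 1.69% of all tested genes toward replicate 1 and 6.96% toward replicate 2.

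Summed TPM of the 10 members, 256 in mean, was 911 when rescaled over coding genes and 498 in the second file, and ranged from 161 to 351 over the single libraries. Jun over Fos TPM was 1.10 in the second file and ranged from 1.23 to 1.28 over the single libraries. No paired analysis was possible because there is 1 group. At 11 to 61 counts in replicate 2, the ratios of Fosl1, Atf3, Fos and Fosb are limited by depth.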

Other observations

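Several members overlap another annotated gene on the opposite strand, and whether the authors counted by strand is not given in the sources used here. Junos, which overlaps Jun, held 45 counts in replicate 1 and 60 in replicate 2, and Gm11175, which lies within Jund, held 27 and 28. Ccdc85b, which overlaps Fosl1, held 387 and 380 counts, more than the 100 and 11 of Fosl1 itself. Tmem184a, which overlaps the end of Mafk, held 6 counts in replicate 1 and 72 in replicate 2. Prdx2, which overlaps only the minor transcript Junb-202, held 6804 and 4607. These counts are before scaling, and whether reads of the opposite strand have a part in the ratios of the members was not tested.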
